A study of Mus musculus with 2 samples.

Results

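Expression of 8 ion and fluid transport genes was followed in 2 single-cell libraries of choroid with retinal pigment epithelium (RPE) from wild-type ICR mice aged 8 weeks: Kcnj13, Best1, Slc4a5, Slc12a2, Aqp1, Clic6, Atp1b1 and Atp1b2. The genes were picked by symbol, with earlier results of these data known, and are 8 of the 32285 genes in the deposited tables. ICR is an outbred albino strain, so its pigment cells carry no melanin. Each library pooled the tissue of 1 male and 1 female mouse, and there was no other genotype, treatment or age, so the libraries are replicates of 1 group (n = 2). The tissue was digested with collagenase A, in the presence of the agent named Y27362 in the labels and then with trypsin. With 2 libraries, p-values measure only how differences between cell classes vary between these pools of mice.

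The RPE is a single layer of cells between the photoreceptors and the choroidal blood vessels. It moves water, chloride, potassium, bicarbonate and lactate from the retina to the choroid, driven by a sodium-potassium pump that in this epithelium lies on the retinal side. Kcnj13 encodes Kir7.1, the apical potassium channel that recycles potassium for that pump. Atp1b1 and Atp1b2 encode beta subunits of the pump. Slc12a2 encodes NKCC1, which loads the cell with sodium, potassium and chloride, and Slc4a5 encodes a sodium-bicarbonate cotransporter. Best1 encodes bestrophin, a calcium-activated anion channel known from inherited macular disease, Clic6 a member of the chloride intracellular channel family, and Aqp1 a water channel.

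Cells were barcodes with 1000 or more UMIs (counted molecules), 500 or more genes and no more than 20% of UMIs from mitochondrial genes, 8497 in the first library and 13401 in the second, with medians of 7842 and 8253 UMIs. Each cell went to the class for which it had most UMIs of 3 marker genes, with at least 5. This gave 4095 and 6278 fibroblast-like, 1407 and 2249 melanocyte-like, 1118 and 1713 mural-like (pericyte and smooth muscle), 465 and 609 endothelial-like, 430 and 866 macrophage-like and 304 and 902 RPE-like cells. Another 678 and 784 cells stayed unclassified. All 7 further RPE markers (Lrat, Rdh5, Rdh10, Stra6, Otx2, Ttr and Rrh) were highest in the RPE-like class in both libraries, with a median of 1124 and 1449 CPM (counts per 1e+06 UMIs of the class). The 5 further melanocyte markers had a median of 28.0 and 23.7 CPM there, with none at 0. Of the 25 check markers of the other 5 classes, only Cspg4 did not peak in its own class in both libraries. RPE-like cells were the deepest class, with medians of 26253.5 and 19066 UMIs against 6082 to 11464 in the others. The libraries shared 31 cell barcodes, and leaving these out changed no call of the 8 genes given here. Doublets were left in. Scrublet marked 4.61% and 9.20% of RPE-like cells and 7.75% and 12.1% of melanocyte-like cells as doublets. RNA free of cells held the transcripts too: barcodes of at most 100 UMIs had Kcnj13 at 143 and 249 CPM, Slc12a2 at 111 and 172, Aqp1 at 94.5 and 119.6, Atp1b1 at 80.3 and 139.6, Slc4a5 at 51.2 and 79.4, Clic6 at 38.9 and 76.2, Atp1b2 at 41.4 and 44.8 and Best1 at 0.667 and 1.14.

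The promoters of 3 of the genes are shown because their transcripts had 3 different distributions: Kcnj13 in both pigment cell classes, Atp1b1 in RPE-like cells, and Aqp1 in endothelial-like cells. RefSeq promoters (GRCm38.p6) were found for 5 of the 8 genes. The windows below are the 250 bases before the start, read 5′ to 3′ on the gene's strand, and none of their bases lies in a GENCODE M21 exon. Capitals mark the E-box CATGTG, a motif bound by factors such as MITF. It was searched on both strands, and in the Kcnj13 window it is read on the other strand. The Kcnj13 window is chr1:87394730-87394979 (minus strand), that of Atp1b1 chr1:164458356-164458605 (minus strand) and that of Aqp1 chr6:55336049-55336298 (plus strand).
Kcnj13: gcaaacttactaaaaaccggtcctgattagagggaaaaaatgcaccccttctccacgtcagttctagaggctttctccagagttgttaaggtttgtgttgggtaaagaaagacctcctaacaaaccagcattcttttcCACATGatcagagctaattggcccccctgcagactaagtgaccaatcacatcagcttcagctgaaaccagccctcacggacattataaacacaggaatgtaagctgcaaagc
Atp1b1: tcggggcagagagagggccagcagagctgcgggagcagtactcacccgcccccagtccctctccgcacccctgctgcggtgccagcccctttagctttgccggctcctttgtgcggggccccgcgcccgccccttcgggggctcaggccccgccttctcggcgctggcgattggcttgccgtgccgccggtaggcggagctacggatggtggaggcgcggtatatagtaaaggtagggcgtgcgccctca
Aqp1: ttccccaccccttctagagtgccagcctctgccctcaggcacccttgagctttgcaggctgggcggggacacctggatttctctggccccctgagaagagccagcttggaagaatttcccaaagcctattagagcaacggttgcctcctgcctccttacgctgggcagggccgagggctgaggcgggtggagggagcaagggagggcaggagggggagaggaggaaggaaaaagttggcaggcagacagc
Kcnj13 held the CATGTG motif once, with its first base 112 bases before the start. The palindromic E-box CACGTG was in none of these 3 windows. Nor was TAATCC, a motif bound by OTX2, on either strand. Over 32851 promoter windows of the same length, 12.3% held CATGTG, 6.02% CACGTG and 6.25% TAATCC. The motifs do not overlap. The GC content was 45.2% for Kcnj13, 70.4% for Atp1b1 and 62.0% for Aqp1, against a median of 52.4% over all windows.

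Against the mean of the log2 levels of the remaining 5 classes, RPE-like cells had 5 of the 8 genes higher and 1 lower. A gene can be higher by this measure while another class has more of it. Of all 15420 tested genes, 26.1% were higher and 24.6% lower there. The median log2 difference was 4.59 over the 8 genes and -0.07 over all tested genes. The 8 genes were chosen with earlier results of these data known, so this contrast with all genes is only a description. Clic6, Slc4a5, Kcnj13, Atp1b1 and Atp1b2 were higher, Aqp1 was lower, and Slc12a2 and Best1 did not pass (edgeR quasi-likelihood test on summed UMIs per class and library, with a p, adjusted by Benjamini-Hochberg, under 0.05 and a log2 difference of 1 or more). Melanocyte-like cells had 3 of the genes higher, against 14.5% of all genes, and 2 lower, against 11.3%. Mural-like cells had 2 higher (14.6% of all genes) and 1 lower (10.4%), fibroblast-like cells 2 higher (18.2%) and 2 lower (8.74%), endothelial-like cells 1 higher (15.3%) and 4 lower (20.8%), and macrophage-like cells 1 higher (19.5%) and 6 lower (21.3%). These counts include Best1, a gene with few UMIs. It was the gene higher in macrophage-like cells (4 and 17 UMIs), and 1 of the 2 higher in fibroblast-like cells (49 and 93 UMIs). It was also 1 of the 2 lower in melanocyte-like cells (4 and 6 UMIs). The step from the highest class to the next is given with each gene, with some of the steps further down. Not every step that passed is given. By the same limits, the share of all genes past the test was 20.1% for RPE-like over melanocyte-like cells, 29.9% for RPE-like over endothelial-like, 15.8% for melanocyte-like over fibroblast-like, 17.9% for melanocyte-like over mural-like, 17.3% for mural-like over melanocyte-like, 27% for fibroblast-like over RPE-like, 11.2% for fibroblast-like over mural-like and 14.4% for endothelial-like over fibroblast-like cells.

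**Figure D1:**
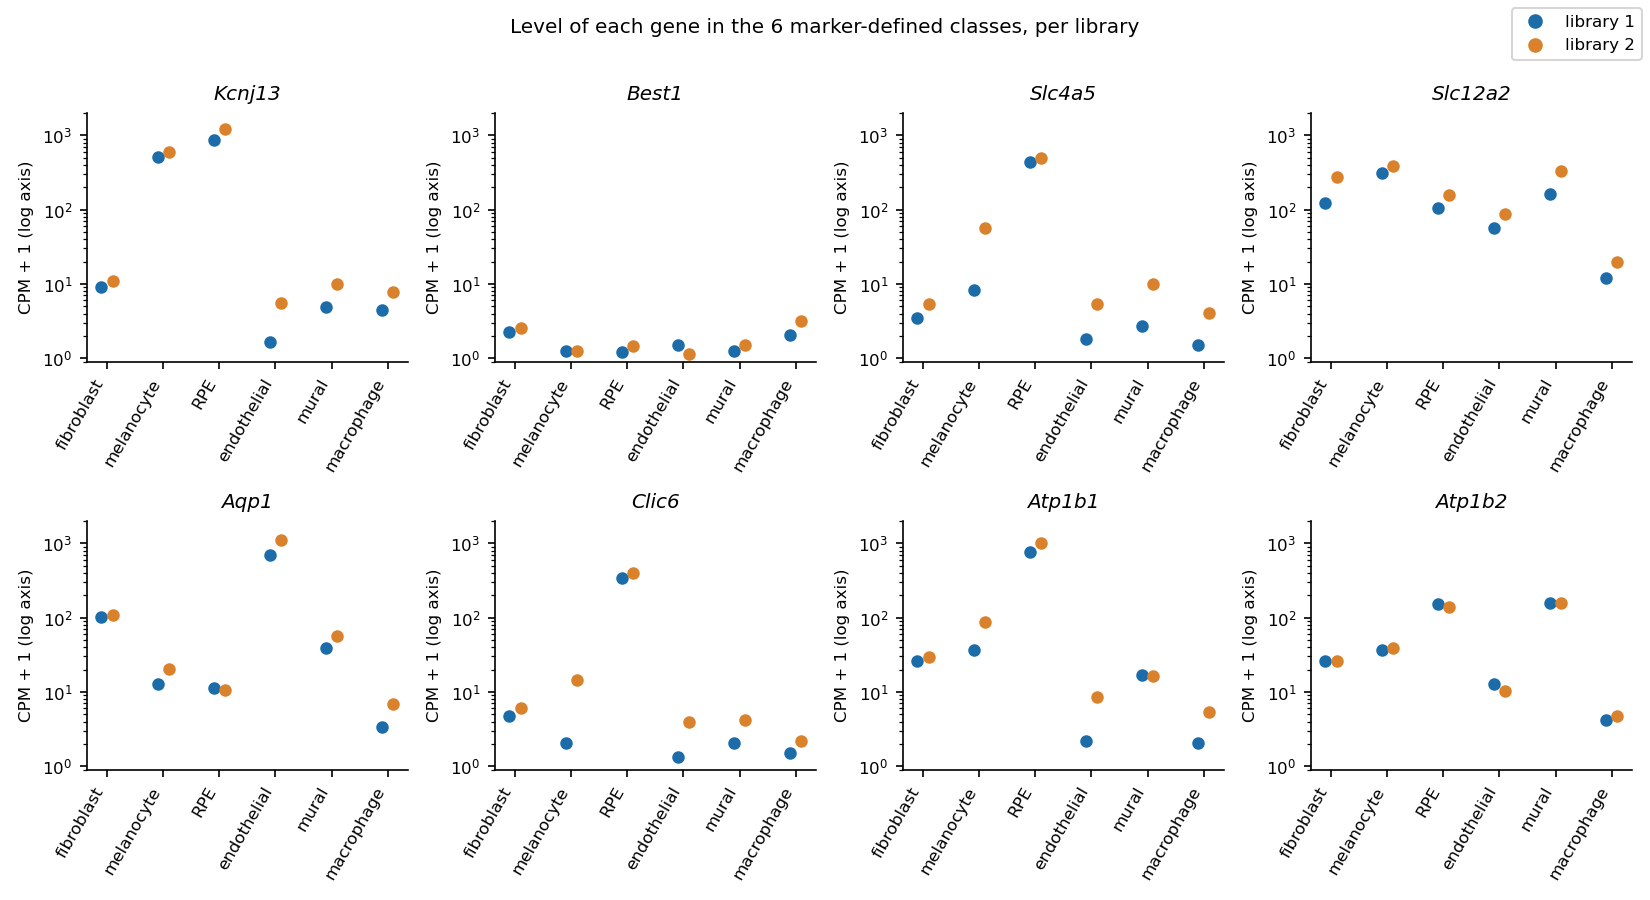
Level of each gene (CPM + 1, log axis) in the 6 marker-defined classes, with 1 point per library. Slc4a5, Clic6 and Atp1b1 stand out in RPE-like cells, Kcnj13 in RPE-like and melanocyte-like cells, Atp1b2 in RPE-like and mural-like cells and Aqp1 in endothelial-like cells, while Best1 stays below 2.5 CPM in every class.

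Kcnj13 was highest in RPE-like cells, and melanocyte-like cells came next. The gene (ENSMUSG00000079436) lies at chr1:87386363-87394729 on the minus strand of GRCm38. Its level was 856.5 and 1203 CPM in RPE-like cells and 517 and 591 CPM in melanocyte-like cells. Both RPE-like values lay above both melanocyte-like values, and every other class had 0.667 to 9.80 CPM. The excess over the mean of the other classes was 6.41 ± 0.21 on the log2 scale (SE; adjusted p = 1.06e-08). The step from melanocyte-like to RPE-like cells was 1.16 ± 0.30 (adjusted p = 0.00933), and it did not pass with raw UMI totals in place of TMM scaling (0.86; adjusted p = 0.0285) or after subtraction of free RNA (1.24; adjusted p = 0.266). Melanocyte-like cells stood 5.86 ± 0.37 above fibroblast-like cells (adjusted p = 2.16e-06), the class next in order. Because melanocyte-like cells are more numerous, they held 50.2% and 36.0% of all Kcnj13 UMIs in cells, and RPE-like cells 47.8% and 61.9%. Kcnj13 lies within Gigyf2, a gene on the opposite strand, and shares 623 exon bases with it. Gigyf2 had 22.6 and 22.3 CPM in RPE-like cells and 18.7 to 35.8 CPM in the other classes.

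The pump subunit genes differed in where they were found. Atp1b1 (ENSMUSG00000026576; chr1:164437109-164458355, minus strand) had 769 and 1003 CPM in RPE-like cells, against 35.2 and 85.9 in melanocyte-like, 25.2 and 29.0 in fibroblast-like, 15.9 and 15.4 in mural-like, 1.17 and 7.49 in endothelial-like and 1.05 and 4.42 in macrophage-like cells. Both RPE-like values thus lay far above all others. The difference to the mean of the other classes was 6.31 ± 0.28 (adjusted p = 6.44e-07) and that to melanocyte-like cells 4.27 ± 0.47 (adjusted p = 0.000188). After subtraction of free RNA the latter kept its size, 4.25 ± 1.51, at an adjusted p of 0.0725. The neighbours melanocyte-like and fibroblast-like (0.93 ± 0.42; adjusted p = 0.103) and fibroblast-like and mural-like (0.89 ± 0.45; adjusted p = 0.186) did not differ beyond their spread. Atp1b1 shares 575 exon bases with Nme7 on the opposite strand, which had 12.6 and 21.5 CPM in RPE-like cells.

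Atp1b2 (ENSMUSG00000041329; chr11:69599736-69605942, minus strand) was high in 2 classes. It had 150.2 and 139.8 CPM in RPE-like cells and 155 and 159 CPM in mural-like cells, so that the values of both classes lay close together. On the TMM scale of the fit RPE-like cells came first, by 0.16 ± 0.12 (adjusted p = 0.258). The direction of this difference turned with raw totals, with stricter classes and without cells that had a Pax6, Pcp4 or Optc UMI. The last of these settings kept 199 of 304 and 642 of 902 RPE-like cells. Mural-like cells stood 2.14 ± 0.13 above melanocyte-like cells (adjusted p = 2.84e-08), which had 35.2 and 37.6 CPM. Fibroblast-like cells followed with 24.8 and 25.1, endothelial-like cells with 11.8 and 9.27 and macrophage-like cells with 3.14 and 3.77 CPM. Against the mean of the other classes, the Atp1b2 excess was 2.88 ± 0.09 for RPE-like cells (adjusted p = 1.89e-11). For mural-like cells it was 2.68 ± 0.09 (adjusted p = 1.22e-10).

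Slc4a5, the sodium-bicarbonate cotransporter gene (ENSMUSG00000068323; chr6:83219828-83304945, plus strand), was highest in RPE-like cells in both libraries. Its level was 436 and 500.4 CPM there. Melanocyte-like cells had 7.25 and 54.8 CPM, far apart between the libraries, and the remaining classes had 0.524 to 8.95 CPM. RPE-like cells stood 7.05 ± 0.41 above the mean of the other classes (adjusted p = 8.72e-06) and 4.74 ± 0.67 above melanocyte-like cells (adjusted p = 0.00110). The next step, melanocyte-like over mural-like, was 2.30 ± 0.71 (adjusted p = 0.0345), and it did not pass without cells that had a Pax6, Pcp4 or Optc UMI (1.49; adjusted p = 0.244), with a mitochondrial limit of 10% (1.67; adjusted p = 0.192) or without the filter on low counts (2.32; adjusted p = 0.0703). After subtraction of free RNA mural-like cells kept no Slc4a5 UMI. The value then given by the fit, 11.81 (adjusted p = 0.0239), depends on its prior count and is not read as a size. In melanocyte-like cells the RPE marker Ttr, the highest of the 7, stood at 244 CPM in the first library and 2099 in the second, and its part in the Slc4a5 value was not tested.

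Clic6 (ENSMUSG00000022949; chr16:92485736-92541243, plus strand) was found almost only in RPE-like cells. It had 343 and 395 CPM there against 1.06 and 13.4 in melanocyte-like cells and 0.333 to 5.15 in the other classes, and RPE-like cells held 95% and 91.8% of its UMIs in cells. The difference to the mean of the other classes, 7.54 ± 0.45 (adjusted p = 9.60e-06), was the largest of the 8 genes. RPE-like cells stood 6.30 ± 0.76 above melanocyte-like cells (adjusted p = 0.000532), and no step further down the order passed the test.

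Slc12a2, the NKCC1 gene (ENSMUSG00000024597; chr18:57878678-57946821, plus strand), was spread over most classes. Its level was 313 and 390 CPM in melanocyte-like, 161 and 333 in mural-like, 122 and 275 in fibroblast-like, 104 and 154 in RPE-like, 55.7 and 85.7 in endothelial-like and 11 and 18.9 in macrophage-like cells. The second library was higher in all 6 classes, most in fibroblast-like and mural-like cells. RPE-like cells were 0.38 ± 0.14 above the mean of the log2 levels of the other classes (adjusted p = 0.0217), under the log2 limit of 1. In CPM, melanocyte-like, mural-like and fibroblast-like cells each stood above RPE-like cells in both libraries. Melanocyte-like cells exceeded mural-like cells by 0.58 ± 0.18 (adjusted p = 0.0144), also under that limit, while mural-like and fibroblast-like cells (0.25 ± 0.18; adjusted p = 0.312) and fibroblast-like and RPE-like cells (0.35 ± 0.18; adjusted p = 0.0892) did not differ beyond their spread. RPE-like cells exceeded endothelial-like cells by 1.15 ± 0.18 (adjusted p = 9.86e-05), with adjusted p = 0.0551 after subtraction of free RNA and a log2 difference of 0.88 with raw totals.

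Best1, the bestrophin gene (ENSMUSG00000037418; chr19:9985174-10001633, minus strand), was hardly detected in any class. RPE-like cells had 2 and 10 UMIs, or 0.205 and 0.459 CPM. The highest levels were 1.05 and 2.21 CPM in macrophage-like and 1.29 and 1.52 CPM in fibroblast-like cells, and free RNA had 0.667 and 1.14 CPM. Best1 did not pass the test in RPE-like cells against the mean of the others (-0.50 ± 0.53; adjusted p = 0.408). Fibroblast-like cells exceeded RPE-like cells by 1.75 ± 0.52 (adjusted p = 0.00801), while macrophage-like and fibroblast-like cells did not differ beyond their spread (0.68 ± 0.48; adjusted p = 0.238). Fth1, the ferritin heavy chain gene whose end lies 75 bases from the 3′ end of Best1, had 36830.5 and 24833 CPM in macrophage-like and 3905 and 3529 CPM in RPE-like cells. Whether reads near that border bear on the Best1 counts was not tested.

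Aqp1, the water channel gene (ENSMUSG00000004655; chr6:55336432-55348555, plus strand), was highest in endothelial-like cells in both libraries. It had 695.5 and 1095 CPM in endothelial-like cells, 102 and 106 in fibroblast-like, 38.2 and 55.5 in mural-like, 11.8 and 19.4 in melanocyte-like, 10.5 and 9.63 in RPE-like and 2.36 and 5.85 in macrophage-like cells. Endothelial-like cells exceeded fibroblast-like cells by 2.98 ± 0.21 (adjusted p = 1.56e-07), and those exceeded mural-like cells by 1.27 ± 0.20 (adjusted p = 0.000376). The latter step had an adjusted p of 0.114 with Scrublet doublets removed and was 2.06 in classes of at least 80% marker purity. RPE-like cells were lower than the mean of the other classes by a log2 value of -2.13 ± 0.19 (adjusted p = 7.21e-07). After subtraction of free RNA this was -0.33 with an adjusted p of 0.935. That subtraction took 13.1% and 7.58% of macrophage-like UMIs as free RNA, judged by rod genes, which left that class no Aqp1 UMI. The value of -0.33 therefore depends on the prior count of the fit. A single cell held 80 of the 102 Aqp1 UMIs in RPE-like cells of the first library and another 45 of the 210 in the second, and without its highest cell the class had 2.27 and 7.60 CPM. The fit was not repeated without these cells. Of the 102 UMIs, 97 came from the 90 cells with a Sox10 UMI and no Pax6, Pcp4 or Optc UMI, of which only 4.44% had an Aqp1 UMI, and 5 came from 197 cells outside both marker groups. In the second library those groups had 65 UMIs in 206 cells and 143 UMIs in 662 cells.

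In RPE-like cells the share of cells with at least 1 UMI followed the order of the levels, both taken as means of the libraries. The share also rose with depth, and RPE-like cells were the deepest. Kcnj13 was found in 97.7% of RPE-like cells in the first library (exact Clopper-Pearson 95% interval 95.3% to 99.1%) and in 98.1% in the second (97% to 98.9%). Atp1b1 was found in 95.7% and 96.6%, Slc4a5 in 93.4% and 93.7%, Clic6 in 89.8% and 90.2%, Atp1b2 in 80.9% and 76.2% and Slc12a2 in 68.8% and 74.3% of RPE-like cells. Aqp1 was found in 2.96% and 5.43% and Best1 in 0.658% and 1.11%. Intervals cover counting error only, since UMIs of 1 library share its capture. In macrophage-like cells, where Kcnj13, Atp1b1, Slc4a5 and Clic6 are not known as expressed genes, their shares were 0.465% to 5.08% at median depths of 8727 and 8412.5 UMIs.

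Every cell was then thinned to 2000 UMIs, which left out 9 and 43 RPE-like cells and 10 to 56 cells of each other class. Kcnj13 was found after thinning in 77.6% and 85.8% of RPE-like and 52.5% and 54.8% of melanocyte-like cells, and Atp1b1 in 73.2% and 82.2% of RPE-like cells. Slc4a5 was found in 51.2% and 56.9% and Clic6 in 45.1% and 49.9%. Atp1b2 was found in 21.4% and 19.9% of RPE-like against 25.1% and 27.9% of mural-like cells. Slc12a2 was found in 15.3% and 24.4% of RPE-like against 40.1% and 46.1% of melanocyte-like cells, and Aqp1 in 41.4% and 47.9% of endothelial-like against 0.678% and 1.05% of RPE-like cells. Between classes the share did not always follow the level. Aqp1 in endothelial-like cells, at 695.5 and 1095 CPM, had a lower share than Slc4a5 in RPE-like cells, at 436 and 500.4 CPM.

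**Figure D2:**
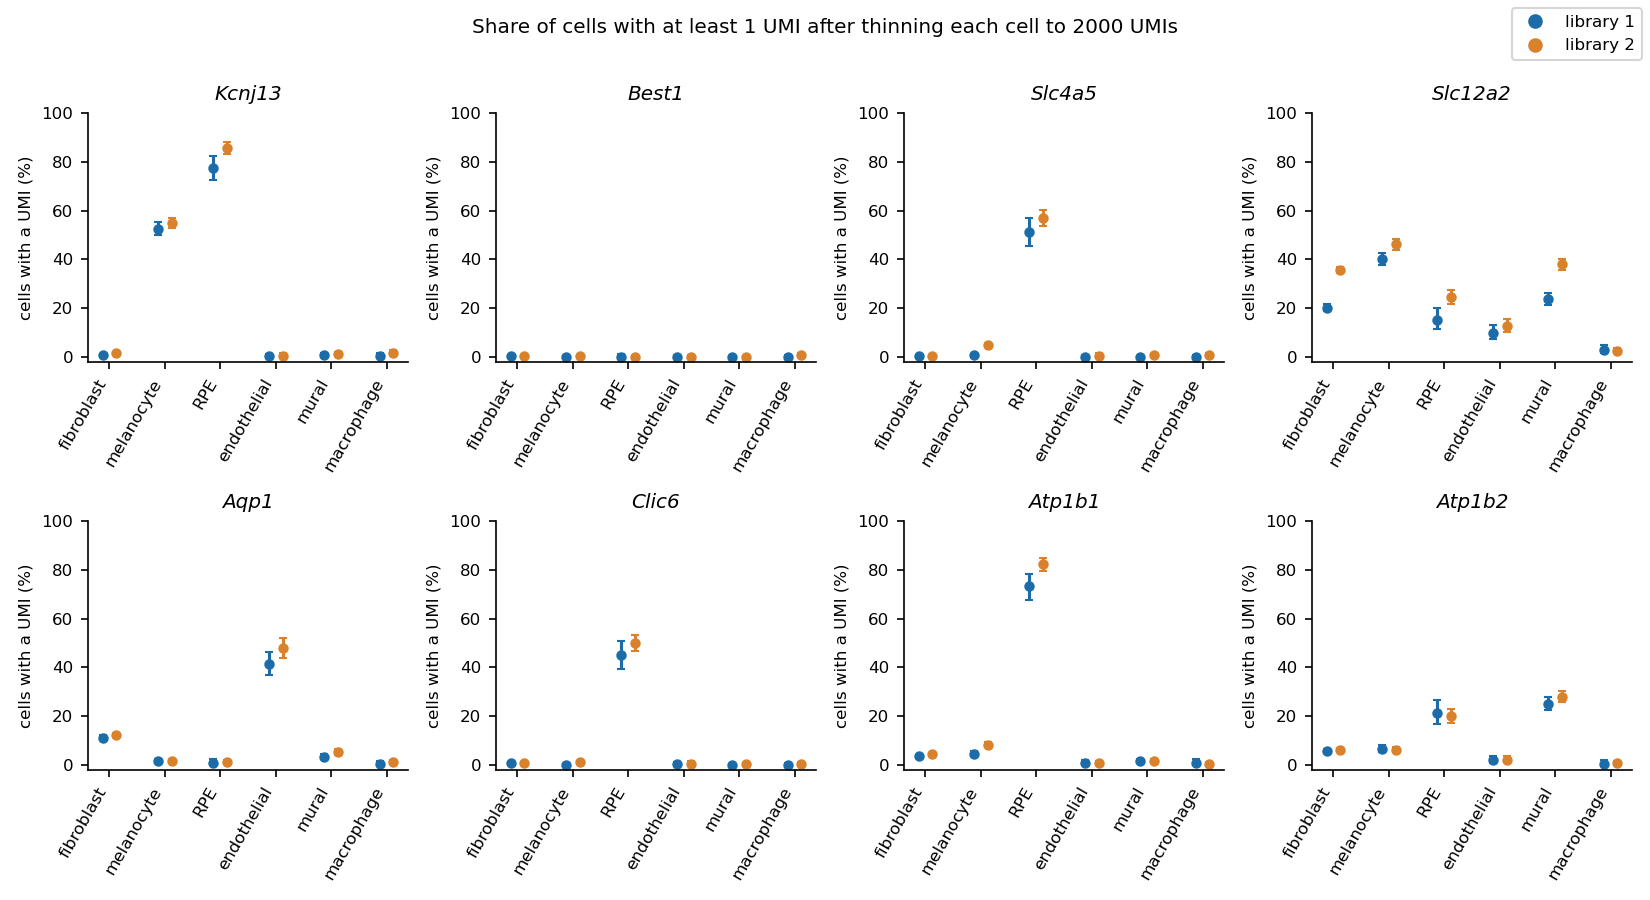
Share of cells (%) with at least 1 UMI of each gene after thinning each cell to 2000 UMIs, by class, with 1 point per library and exact 95% intervals for counting error. Kcnj13, Atp1b1, Slc4a5 and Clic6 are found in 45.1% to 85.8% of RPE-like cells, and Aqp1 in 41.4% and 47.9% of endothelial-like cells.

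Most RPE-like cells held UMIs of several of the genes, while Best1 and Aqp1 were in few and no cell had all 8. The median cell had UMIs of 6 of the 8 genes in both libraries, 61.8% and 61.3% had 6 or more, the highest number was 7, and no cell had none. Kcnj13, Slc4a5, Clic6 and Atp1b1 were all present in 85.9% and 84.6% of the cells, and with Atp1b2 in 75.3% and 70.7%. Cell-to-cell correlations of scaled levels were low: over the 28 pairs of genes the median Pearson r was 0.08 across 295 cells and 0.03 across 859 cells, and the highest, Slc4a5 with Clic6, was 0.49 and 0.33. These cells share a library and counts are sparse, so these values are a description. RPE-like cells with 10 to 49 marker UMIs (17 and 76 cells), shallow cells with median depths of 2061 and 1975 UMIs, had Kcnj13 at 499.8 and 915 CPM and Atp1b1 at 695 and 902.5 CPM. The 10 and 30 cells just below the class limit, with 1 to 4 RPE marker UMIs, had 0 and 1 Kcnj13 UMIs, and the 1 and 2 cells just above it, with 5 to 9, had 1 and 2.

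Further marker genes, chosen with values of the 8 genes in view, split the other classes, and levels in these subsets are given without a test. In melanocyte-like cells with a Sox10 UMI, the neural crest factor of melanocytes, and none of the ciliary epithelium markers Pax6, Pcp4 and Optc (967 and 1502 cells), Kcnj13 stood at 538 and 656 CPM and Slc12a2 at 329 and 439 CPM, while Slc4a5 had 0.893 and 6.44 CPM and Atp1b1 20.1 and 30.1 CPM. Cells of that class with at least 2 UMIs of Pax6, Pcp4 and Optc and no Sox10 (41 and 144 cells) had the reverse: Slc4a5 at 164 and 361 CPM, Atp1b1 at 366 and 405 CPM, Kcnj13 at 14.4 and 63.3 CPM and Slc12a2 at 34.3 and 63.8 CPM. Ttr in the latter was 28.8 and 3198 CPM, against 61567 and 61565 CPM in RPE-like cells. The part of RPE RNA in the Slc4a5 and Atp1b1 values of these cells was not tested in either library.

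In endothelial-like cells, those with most UMIs of the capillary genes Plvap, Kdr and Rgcc (349 and 478 cells) had Aqp1 at 777 and 1193 CPM. Cells with most Selp, Vwf and Ackr1, genes of veins (83 and 93 cells), had 204 and 345 CPM, below the capillary-marked cells in both libraries. Cells with most Gja5, Sox17 and Hey1, genes of arteries, numbered 12 and 11 and had 776 and 459 CPM. In mural-like cells, those with more Rgs5 than Myh11 and Acta2 (873 and 1372 cells) had Atp1b2 at 177.8 CPM in both libraries and Slc12a2 at 197 and 395 CPM. Cells with more Myh11 and Acta2, genes of smooth muscle contraction (240 and 334 cells), had Atp1b2 at 92.4 and 102 CPM and Slc12a2 at 63.9 and 141 CPM.

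**Figure D3:**
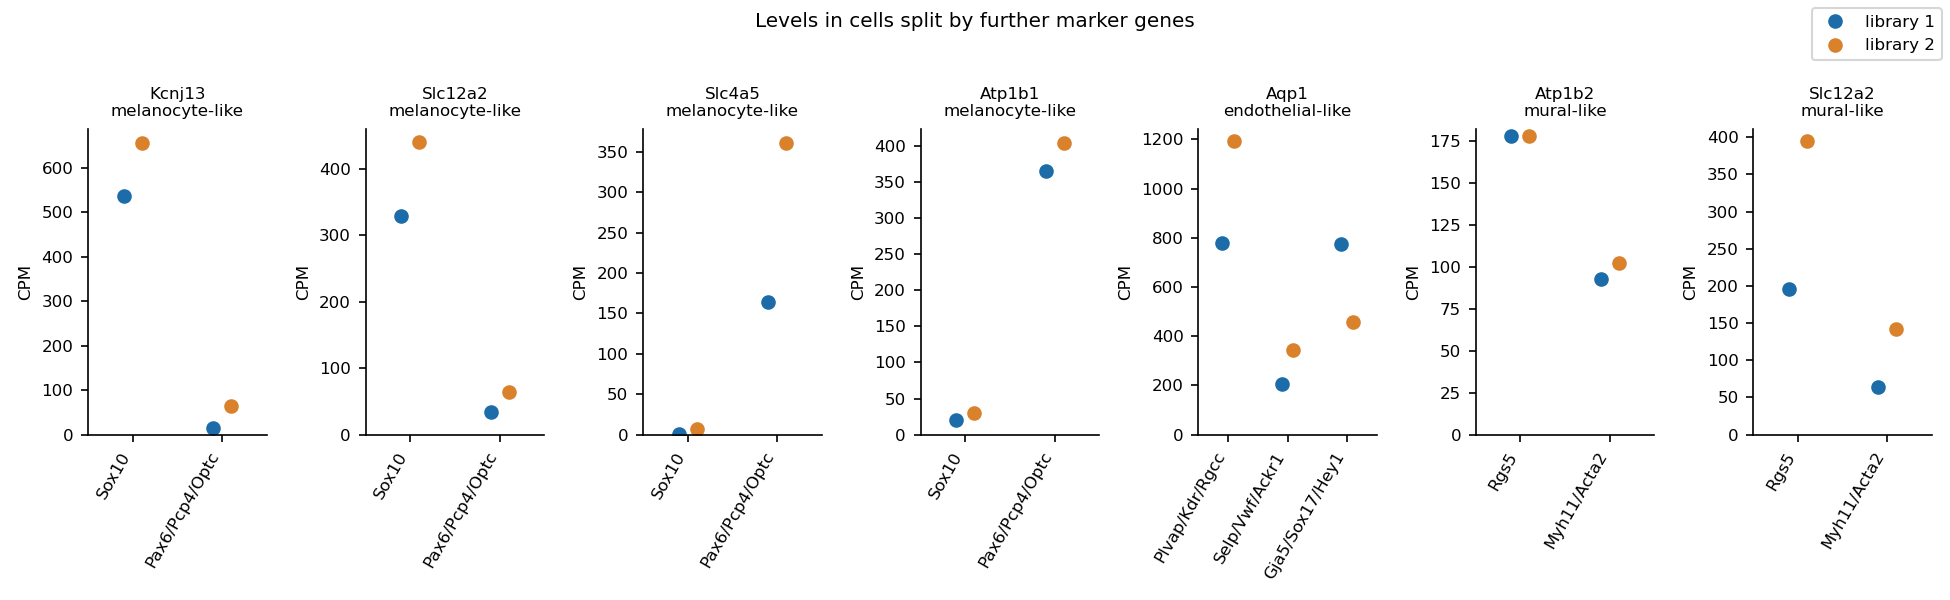
Level (CPM) of single genes in cells of the melanocyte-like, endothelial-like and mural-like classes split by further marker genes, with 1 point per library. Sox10 cells hold Kcnj13 and Slc12a2, Pax6/Pcp4/Optc cells hold Slc4a5 and Atp1b1, and Plvap/Kdr/Rgcc cells hold more Aqp1 than Selp/Vwf/Ackr1 cells.

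Other genes of the same pathways were counted from 8 lists, also written with earlier results of these data known. Of their 113 tested genes, RPE-like cells had 29 higher and 42 lower, against 26.1% and 24.6% of all genes, so the count of higher genes was near the background. The median log2 difference was -0.50 over these genes, or -0.61 with classes that had no UMI of a gene set to 3 UMIs per library. Among 11 sodium-potassium pump subunits and FXYD regulators, 1 was higher and 7 lower, with a median of -2.14. Fxyd5, a pump regulator, was lower by -3.84 ± 0.18 on the log2 scale (SE), with 8.07 CPM. Fxyd7 also passed as lower, on 0 and 1 UMIs in RPE-like cells.

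Of 20 potassium channel genes, 3 were higher and 8 lower, with a median of -1.23 (-1.08 with the 3 UMI floor). Kcne2, a channel beta subunit, had 6.15 and 14.1 CPM, and Kcnk1, a background potassium channel, 4.92 and 10.9 CPM against 10.7 CPM in fibroblast-like cells. Both had no UMI in endothelial-like cells, so no fitted value is given. Kcnj2, an inward rectifier of the Kcnj13 family, was lower by -2.33 ± 0.34, on 6 and 11 UMIs in RPE-like cells. Its mean level was 0.56 CPM there, 53.0 CPM in endothelial-like cells and 1.15 to 1.86 CPM in the remaining classes. Kcnk2 also passed as lower, on 0 and 2 UMIs in RPE-like cells.

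Of 22 chloride channel genes, 5 were higher and 9 lower, with a median of -0.33. Clcn2, a channel gated by voltage and cell volume, was higher by 5.04 ± 0.19 with 34.5 CPM, and Ttyh1 by 4.91 ± 0.20 with 27.3 CPM. Clic4, of the same family as Clic6, was lower by -3.75 ± 0.15, with 54.9 CPM in RPE-like and 1946 in endothelial-like cells, and Lrrc8c by -3.73 ± 0.16. Of 11 cation-chloride cotransporters and their kinases, 4 were higher and 1 lower, with a median of 1.08 (0.73 with the floor). The kinase gene Wnk4, whose product acts on these cotransporters, was higher by 5.19 ± 0.22 while Wnk1 was lower by -1.62 ± 0.13. Stk39, the SPAK kinase that activates NKCC1, was higher by 1.69 ± 0.11 than the mean of the others, with 73.4 and 84.8 CPM, but mural-like cells had more, 134 and 147 CPM. Slc12a5 was higher by 2.33 ± 0.29, at 2.45 CPM against 4.22 CPM in endothelial-like cells.

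Of 19 bicarbonate, proton and lactate transporters, 7 were higher and 6 lower, with a median of 0.49. The lactate transporter gene Slc16a8 (MCT3) had 2104 and 2395 CPM in RPE-like cells (8.22 ± 0.52) and its chaperone Bsg (basigin) 7279.5 and 7314 CPM (4.17 ± 0.09). The anion exchanger Slc26a7 was higher by 4.39 ± 0.19, while Slc16a3 (MCT4), another lactate transporter, was lower by -4.04 ± 0.20. Slc26a4 also passed as lower, on 0 and 1 UMIs in RPE-like cells, with 0 and 0.127 CPM in endothelial-like and 0 and 0.26 CPM in macrophage-like cells, so no size is given. Of 10 genes of the carbonic anhydrase family, 4 were higher and 4 lower. Car12 had 279 and 274 CPM (7.37 ± 0.53), Car14 1207 and 1159 CPM (6.93 ± 0.25) and Car11 21.6 and 19.8 CPM (3.51 ± 0.14) in RPE-like cells, and the cytosolic Car2 was lower by -3.34 ± 0.24 and Car13 by -3.24 ± 0.23. The median of the carbonic anhydrases was 0.32, or -1.37 with the floor.

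Of 4 aquaporins tested, 1 was higher and 1 lower, with a median of -2.01 (-0.89 with the floor). Aqp11 was higher by 2.33 ± 0.22, with 12.6 CPM against 36.1 CPM in endothelial-like cells. Aqp9 had no UMI in RPE-like cells, which allows up to 0.308 and 0.138 CPM, and 3.13 CPM in macrophage-like cells. Of 16 calcium and cation channels, 4 were higher and 6 lower, with a median of 0.11 (-0.25 with the floor). Trpm3 had 1262 and 1323 CPM in RPE-like cells (7.03 ± 0.43), Trpv4, an osmosensitive channel, was higher by 3.62 ± 0.13, and Cacna1h, a T-type calcium channel with no UMI in macrophage-like cells, had 3.49 and 3.35 CPM against 5.77 CPM in mural-like cells. The purinergic receptors P2rx4 and P2rx7 were lower by -4.18 ± 0.23 and -3.88 ± 0.38, the latter on 0 and 8 UMIs. Adjusted p-values of the genes named in these lists ran from 1.59e-12 (Bsg) to 0.0396 (Kcnk2).

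**Figure D4:**
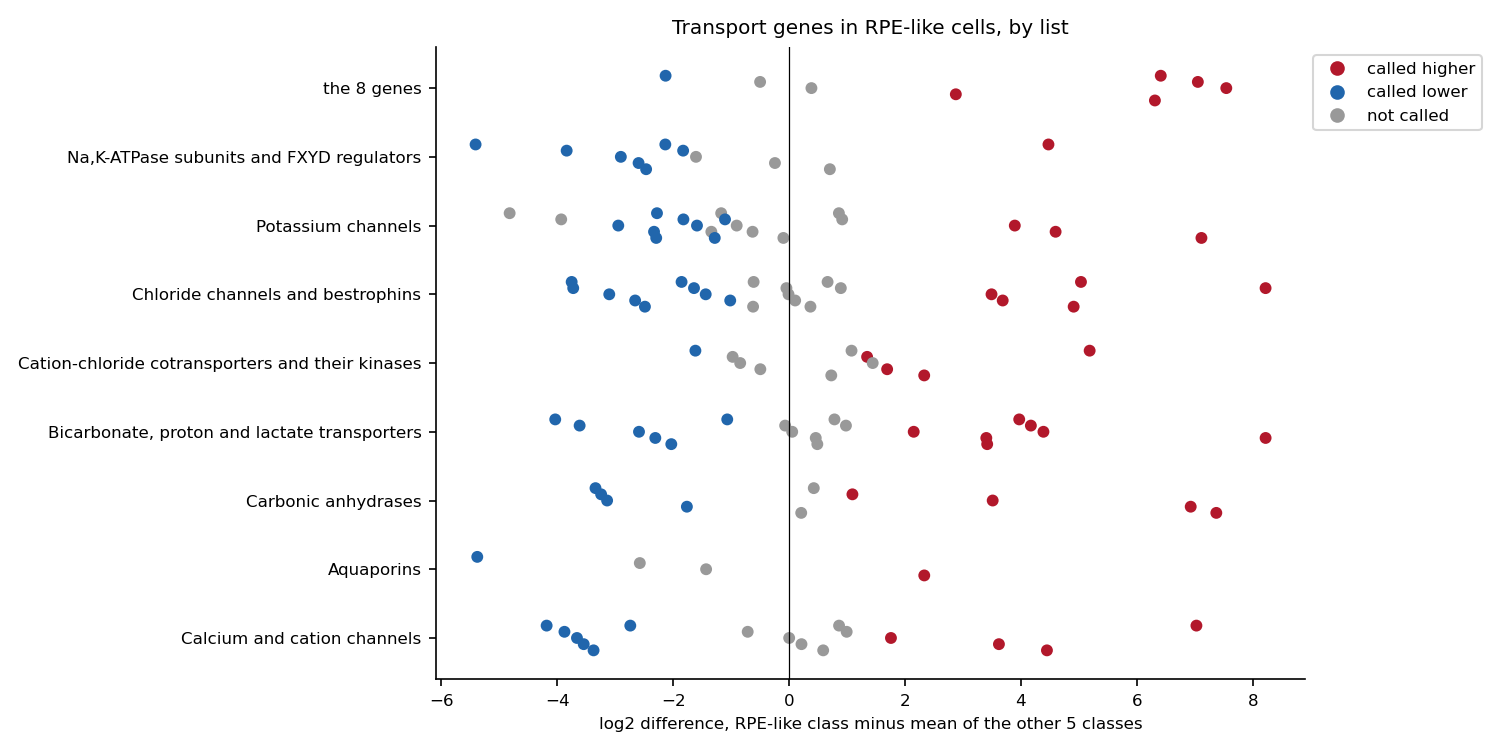
Log2 difference of RPE-like cells to the mean of the other 5 classes for the 8 genes and for each list of other transport genes, with 1 point per gene, coloured by call. Points of the 17 genes with no UMI in some class, Aqp9 among them, depend on the prior count of the fit. Slc16a8 lies at 8.22, while sodium-potassium pump genes lie mostly to the left, with 7 of 11 lower.

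By the correlation of log2(CPM + 1) over the 12 class sums, which share 6 classes and so cluster by class, each of the 8 genes had close companions, given here as a description. Kcnj13 ran with Exoc7 (r = 0.99), Gm45847 and Ptgds, a prostaglandin D synthase gene, Slc4a5 with Gldc, Gm20383 and Lhx2 (r = 0.99), and Clic6 with Car12, Gpam and Tshr, the thyrotropin receptor gene (r = 0.99). Atp1b1 ran with Nap1l5, Snapin and Ociad2, Atp1b2 with Nat14, Gm50240 and Cpe, Aqp1 with Sox4, Adamtsl2 and Tram2 and Slc12a2 with Adgra3 and Evc2. Best1, at few UMIs, ran with Csf2, Ppfia4 and Pstpip1 (r = 0.93 for Csf2). Among the 8 genes, the closest pair was Slc4a5 and Clic6 (r = 0.96), followed by Slc4a5 and Atp1b1 (0.94) and Clic6 and Atp1b1 (0.93), while Kcnj13 and Clic6 had 0.77.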

How the data were processed

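Single-cell RNA was measured in 2 libraries (10x Genomics 3′ kit), each loaded with 10000 cells. The deposited values are UMI counts per gene and barcode, unfiltered, against mm10. The submitters' processing notes name Cell Ranger 2.1.1, while the file headers name version 4. The libraries held 91741168 and 149570817 UMIs.

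The 8 genes and all gene lists were chosen with earlier results of these data known. UMIs were summed per class and library (12 sums) and tested with edgeR 4.0.16 (quasi-likelihood, TMM, filterByExpr, library as a block) under R 4.3.3, adjusted by Benjamini-Hochberg over 15420 genes. The block follows the libraries, since all classes of a library come from the same mice. Differences are log2 with a standard error, and CPM are UMIs per 1e+06 UMIs of the class. The mean of the other classes was taken over their fitted log2 levels with equal weight, not over their CPM. The fit was tested on simulated data in which all classes had the same mean levels, apart from a set of genes changed in the RPE-like class. That test does not cover classes that differ in many genes, as these do. Shares have exact Clopper-Pearson intervals. Alternatives were DESeq2 1.42.0, other filters, scalings, class limits, doublet removal (Scrublet in scanpy 1.11.5) and subtraction of free RNA. Settings without barcodes found in both libraries or without cells with a Pax6, Pcp4 or Optc UMI were chosen after seeing the data. Named genes were the 8, the 3 nearest profiles of each, and from each list up to 3 higher and 2 lower genes with the largest differences. Positions are from GENCODE M21 (GRCm38). A few of the genes this rule names are not reported here.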

Additional observations from a re-analysis of the deposited data

Results flagged for a closer look

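The unclassified cells, which entered no comparison, had transcripts of several of the genes. Listed are those with more than 3 UMIs in both libraries, the limit that a count of 0 allows. This limit takes no account of free RNA, whose level lay above several of these values. Free RNA had Kcnj13 at 143 and 249 CPM, Slc12a2 at 111 and 172, Aqp1 at 94.5 and 119.6 and Atp1b1 at 80.3 and 139.6. It had Slc4a5 at 51.2 and 79.4 and Atp1b2 at 41.4 and 44.8 CPM. Values below are means ± SD of 2 libraries, and no cause was tested. Rod-marked cells (17 and 44) had Atp1b2 at 492.5 ± 32.0 CPM, from 14 and 63 UMIs. Cells with ciliary epithelium markers (3 and 28) had Slc4a5 at 352 ± 1.77 CPM, from 4 and 77 UMIs. Keratin-marked cells (12 and 54) had Atp1b1 at 75.2 ± 27.3 CPM and Slc12a2 at 56.2 ± 17.1 CPM. Schwann-marked cells (37 and 43) had Atp1b2 at 62.7 ± 9.70 CPM and Slc12a2 at 65.3 ± 13.5 CPM, each from at most 14 UMIs a library. Cells with T and NK markers (30 and 45) had Atp1b1 at 57.4 ± 11.7 CPM, from 9 UMIs in each library. The 518 and 507 cells in no further group had Slc12a2 at 114.8 ± 32.9 CPM, Atp1b2 at 30.4 ± 8.77 CPM, Aqp1 at 23.0 ± 6.58 CPM, Atp1b1 at 19.3 ± 8.77 CPM and Kcnj13 at 7.46 ± 7.47 CPM.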

How the results depend on the processing

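Of the 8 differences between RPE-like cells and the mean of the others, only Aqp1 lost its call, after subtraction of free RNA (-0.33; adjusted p = 0.935), which also left 0 of the 8 genes lower. In that setting macrophage-like cells kept no Aqp1 UMI, so the value depends on the prior count of the fit. Without 1 library the difference ran from 6.34 to 6.80 for Kcnj13, from 6.14 to 6.87 for Atp1b1 and from 2.88 to 2.89 for Atp1b2, with no test. Of the steps from the highest class to the next, Kcnj13 did not pass with raw totals (0.86) or free RNA subtracted (1.24), nor did Atp1b1 with free RNA subtracted (4.25). The Atp1b2 step turned to -0.11 with raw totals, -0.038 at 80% purity and -0.052 without Pax6, Pcp4 or Optc cells. Without the replicate block the Kcnj13 step was 1.19 (adjusted p = 0.0488), and the block changed no call of these results. Further down the order, Aqp1 in RPE-like over macrophage-like cells passed only without the block. The cause of these changes was not tested.

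Shares of RPE-like cells with a UMI, as means of both libraries, moved with the filters. At 3000 UMIs or more they were 99.1% for Kcnj13, 96.3% for Slc4a5, 75.4% for Slc12a2, 92.3% for Clic6, 98.1% for Atp1b1 and 81.9% for Atp1b2. With at most 10% mitochondrial UMIs they were 98.2% for Kcnj13, 94.5% for Slc4a5, 91.0% for Clic6 and 97.3% for Atp1b1. Slc4a5 was at 93.8% with 10 marker UMIs. At 80% purity Kcnj13 was at 98.7%, Slc4a5 at 94.0% and Clic6 at 90.5%, and without doublets Slc4a5 was at 93.3% and Clic6 at 89.6%. Leaving out every cell with a Pax6, Pcp4 or Optc UMI kept only 199 of 304 and 642 of 902 RPE-like cells. Shares were then 96.9% for Kcnj13, 0.389% for Best1, 90.7% for Slc4a5, 66.0% for Slc12a2, 87.0% for Clic6, 94.98% for Atp1b1 and 72.0% for Atp1b2. What kind of cells this left out was not tested. Thinned, they were 81.7% for Kcnj13, 0% for Best1, 54.1% for Slc4a5, 19.9% for Slc12a2, 0.863% for Aqp1, 47.5% for Clic6, 77.7% for Atp1b1 and 20.6% for Atp1b2.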
